A study of Mus musculus with 36 samples.

Results

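The 37 genes described here are a cell cycle and DNA replication set. It was given as a list of symbols: 15 genes of the G1/S transition and 22 genes of G2 and mitosis (G2/M). All 37 were found among the 136300 genes of the liver table and among the 32266 genes of the table of mouse embryonic fibroblasts (MEFs). Of the liver genes 87774 carried NONCODE identifiers and 48526 Ensembl identifiers. All 37 also passed the filters on low values, which left 23875 liver genes and 13914 MEF genes to test. Each filter was applied over all groups of its table together. The G1/S genes are Ccnd1, Ccne1, Ccne2, E2f1, Cdc6, Mcm2 to Mcm7, Pcna, Rrm1, Rrm2 and Tyms. The G2/M genes are Mki67, Top2a, Foxm1, Plk1, Birc5, Prc1, Ccnb1, Ccnb2, Ccna2, Cdk1, Aurka, Aurkb, Bub1, Bub1b, Cdc20, Kif11, Kif20a, Tpx2, Cenpe, Cenpa, Ube2c and Nusap1. Ccna2, a cyclin used in S phase as well as in G2, was kept with the G2/M genes.

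The series sequenced polyadenylated RNA from mouse liver and MEFs in which Vps15, encoded by Pik3r4, was present or deleted. Vps15 is the partner protein that regulates the class 3 phosphoinositide 3-kinase Vps34. Liver RNA came from powder of whole frozen liver, although the cell type label says hepatocyte, so it holds RNA of every liver cell type. The livers were taken at zeitgeber time 14 (14 h after lights on) from males 4 weeks old, fed ad libitum or fasted for 24 h. They were labelled wild type (WT) or LKO, and the LKO genotype is Ttr CRE+ Vps15f/f, in which the promoter of the transthyretin gene drives Cre in hepatocytes. The 4 liver groups held 3 libraries each, called a, b and c here because their headings carry a running number but no replicate number of the labels. The MEFs were Vps15f/f cells, grown close to confluence and infected with an adenovirus for GFP, whose label is wild type, or for CRE, whose label is Vps15 knockout, so both arms carry the floxed alleles and a virus. They were kept in medium without serum, either basal, without methionine for 4 h, or without methionine for 4 h and then with methionine again for 1 h or 4 h. The 8 MEF groups held 3 libraries each and are named by their column headings. Whether replicates came from separate animals or cultures is not stated, so p-values measure only the spread between these samples.

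Cells pass from G1 into S phase when cyclin D and cyclin E kinases inactivate the retinoblastoma proteins and free E2F factors, which switch on genes for DNA synthesis. A later wave of genes for chromosome segregation is switched on in G2 by the MuvB complex with B-Myb and Foxm1, through the cell cycle homology region (CHR), a promoter element bound in resting cells by the repressive DREAM complex. Hepatocytes of adult liver are mostly quiescent, while the liver of young mice is still growing and MEFs divide in culture.

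The promoter of each gene shows which class of element it carries. RefSeq windows of 300 bases (250 before to 50 after the annotated start, build GRCm38.p6) were at hand for 29 of the 37 genes, 12 G1/S and 17 G2/M. The windows were searched on both strands for E2F core motifs (TTCCCGC or TTCGCGC or TTGCCGC or TTGGCGC), CHR motifs (TTTGAA or TTTAAA) and the CCAAT box (CCAAT). Matches can overlap each other, and a match is only a description of the letters. The 4 windows printed below were chosen to show the G1/S and G2/M classes and a gene with both elements. E2F and CHR matches are in capitals, and each sequence reads 5′ to 3′ along the strand of its gene. Mcm6 lies at chr1:128359656-128359955 on the minus strand, Mcm5 at chr8:75109259-75109558 on the plus strand, Plk1 at chr7:122159185-122159484 on the plus strand and Cdk1 at chr10:69352863-69353162 on the minus strand.
Mcm6: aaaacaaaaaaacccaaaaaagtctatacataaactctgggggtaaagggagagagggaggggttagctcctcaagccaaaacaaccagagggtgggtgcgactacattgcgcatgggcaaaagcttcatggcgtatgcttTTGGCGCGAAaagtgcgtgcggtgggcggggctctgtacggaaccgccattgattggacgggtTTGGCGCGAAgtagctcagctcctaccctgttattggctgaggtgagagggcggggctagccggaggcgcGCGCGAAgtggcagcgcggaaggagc
Mcm5: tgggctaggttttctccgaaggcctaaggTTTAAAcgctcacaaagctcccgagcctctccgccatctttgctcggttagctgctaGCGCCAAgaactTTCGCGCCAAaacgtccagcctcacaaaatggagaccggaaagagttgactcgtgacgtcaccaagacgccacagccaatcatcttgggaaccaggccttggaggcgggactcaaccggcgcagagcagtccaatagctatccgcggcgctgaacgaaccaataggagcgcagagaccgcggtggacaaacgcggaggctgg
Plk1: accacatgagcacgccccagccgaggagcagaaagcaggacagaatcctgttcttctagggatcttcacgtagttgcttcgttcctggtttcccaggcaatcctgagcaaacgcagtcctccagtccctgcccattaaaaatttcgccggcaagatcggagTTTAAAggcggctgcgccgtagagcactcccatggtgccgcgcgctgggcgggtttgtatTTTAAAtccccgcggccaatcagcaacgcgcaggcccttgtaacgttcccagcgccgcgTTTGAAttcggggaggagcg
Cdk1: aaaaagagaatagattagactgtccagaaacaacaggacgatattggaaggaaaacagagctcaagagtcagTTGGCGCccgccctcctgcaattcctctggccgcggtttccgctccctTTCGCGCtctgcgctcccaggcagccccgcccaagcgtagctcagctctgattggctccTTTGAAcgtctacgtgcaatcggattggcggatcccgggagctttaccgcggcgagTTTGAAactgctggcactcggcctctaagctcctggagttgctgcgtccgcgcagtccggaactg

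Mcm6 and Mcm5, subunits of the replicative helicase, held 5 and 3 E2F matches, with 0 and 1 CHR matches. Plk1, a mitotic kinase, held 0 E2F and 3 CHR matches, at positions -89, -29 and 31 relative to the start site. Cdk1, the mitotic cyclin-dependent kinase, held 2 of each. An E2F match was present for 7 of 12 G1/S genes (58.3%) and for 3 of 17 G2/M genes (17.6%), against 9.57% of all 32851 RefSeq windows. The shares of members are per gene, although the 29 genes had 31 windows, while the share of all is per window. A CHR match was present for 4 of 12 G1/S genes (33.3%) and 15 of 17 G2/M genes (88.2%), against 27.6% of all windows. CCAAT was found in 8 of 12 (66.7%) and in 15 of 17 (88.2%), against 37.4%. The 3 G2/M genes with an E2F match were Ccnb1, Cdk1 and Mki67. The 2 G2/M genes with a window but no CHR match were Bub1 and Nusap1.

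**Figure D1:**
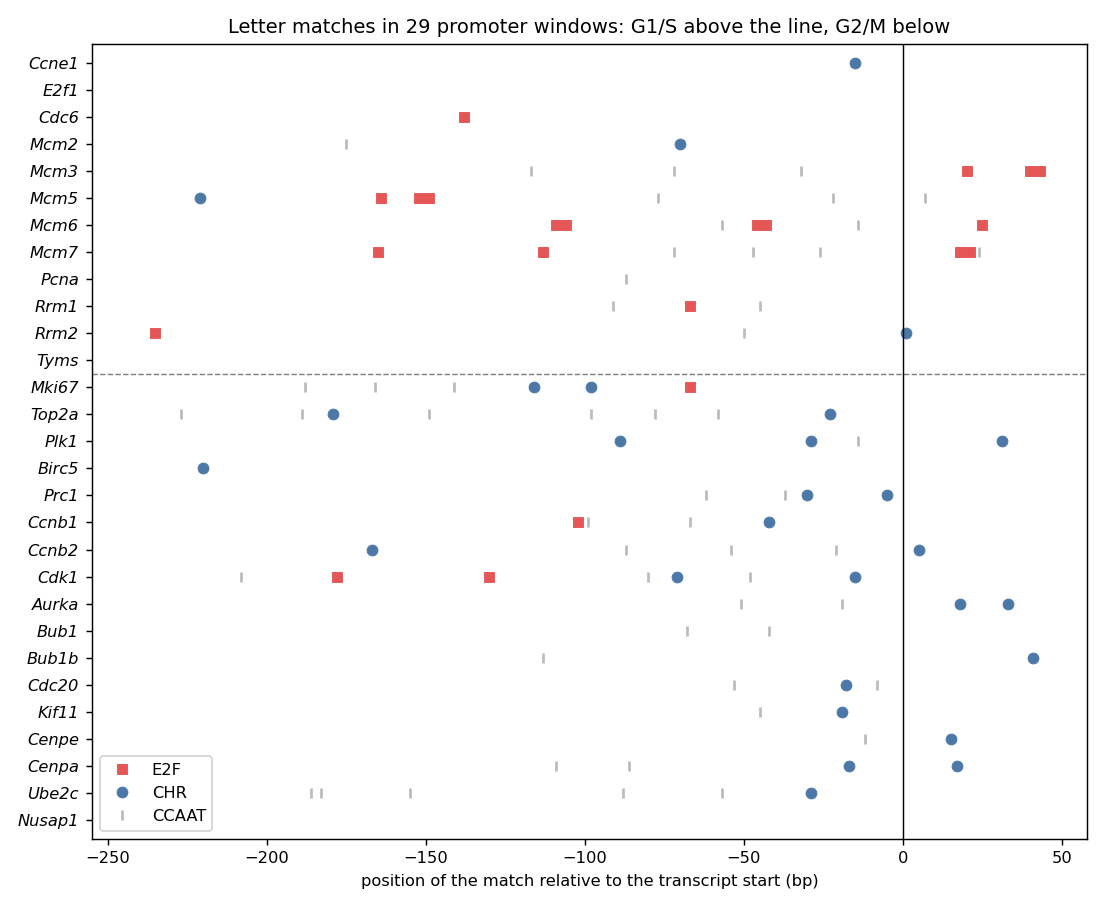
Positions of motif matches in the promoter windows of 29 genes, with distance from the annotated start in bases on the x axis and 1 line per gene. Each mark is a match, coloured by motif. E2F matches were present for 7 of the 12 G1/S genes and CHR matches for 15 of the 17 G2/M genes.

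Depth was 9110836 to 12870944 counts per liver library and 19345029 to 21245006 whole counts, recovered from the deposited values, per MEF library. Pik3r4 was read first because the labels name it. Its liver level was 21.2 ± 3.14 CPM (counts scaled to the effective library size; SD, n = 3) in fed WT, 22.3 ± 2.07 in fasted WT, 24.0 ± 1.63 in fed LKO and 21.1 ± 2.87 in fasted LKO, with overlapping ranges. On the deposited log2 scale of the MEFs it was 9.91, 9.64, 9.90 and 9.73 under the GFP headings (basal, deprived, 1 h and 4 h) and 10.13, 9.86, 10.05 and 9.78 under the CRE headings. Under each heading the CRE mean thus lay above the GFP mean, and the gene-level values showed no sign of the deletion that the labels name. They are over the whole gene, and the exons deleted are not given in the sources used here. Loss of those exons was therefore not tested. The MEF libraries held the fibroblast markers Col1a1 at 1890 and Pdgfra at 258 CPM on average, while Alb had at most 2 counts, Epcam at most 2 and Ptprc at most 6 in any library. Whole liver was labelled as hepatocyte and held the summed hepatocyte markers at 42700 to 46000 CPM in fed WT.

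Cyclin D1 and the replication clamp were the most abundant of the 37 messages per length, and Bub1, a spindle checkpoint kinase, and Cenpe, a kinetochore motor, were the rarest in liver. Per kilobase of exon, Ccnd1, which drives the first step out of G1, had the highest mean level of the 37 genes over the 4 liver groups, at 22.3 CPM per kb. Pcna, the sliding clamp of DNA polymerase, was second at 10.8 CPM per kb. Bub1, a kinase of the spindle checkpoint, was last at 0.122 CPM per kb. In MEFs Pcna was first at 129 and Ccnd1 second at 88.2 CPM per kb, and the lowest was Ccne2, an E-type cyclin, at 9.43. The 15 G1/S genes summed to 266 ± 82.9 CPM in fed WT liver (SD, n = 3), 86.2 ± 2.33 in fasted WT, 330 ± 24.8 in fed LKO and 279 ± 26.1 in fasted LKO. The 22 G2/M genes summed to 33.2 ± 9.86, 14 ± 1.37, 137 ± 33.5 and 69.3 ± 11 CPM in the same order. The fed and fasted WT sums did not overlap for either class, and fed LKO lay above fed WT for the G2/M sum (98.1 to 156 against 23.6 to 43.3) but not for the G1/S sum (309 to 358 against 212 to 362).

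**Figure D2:**
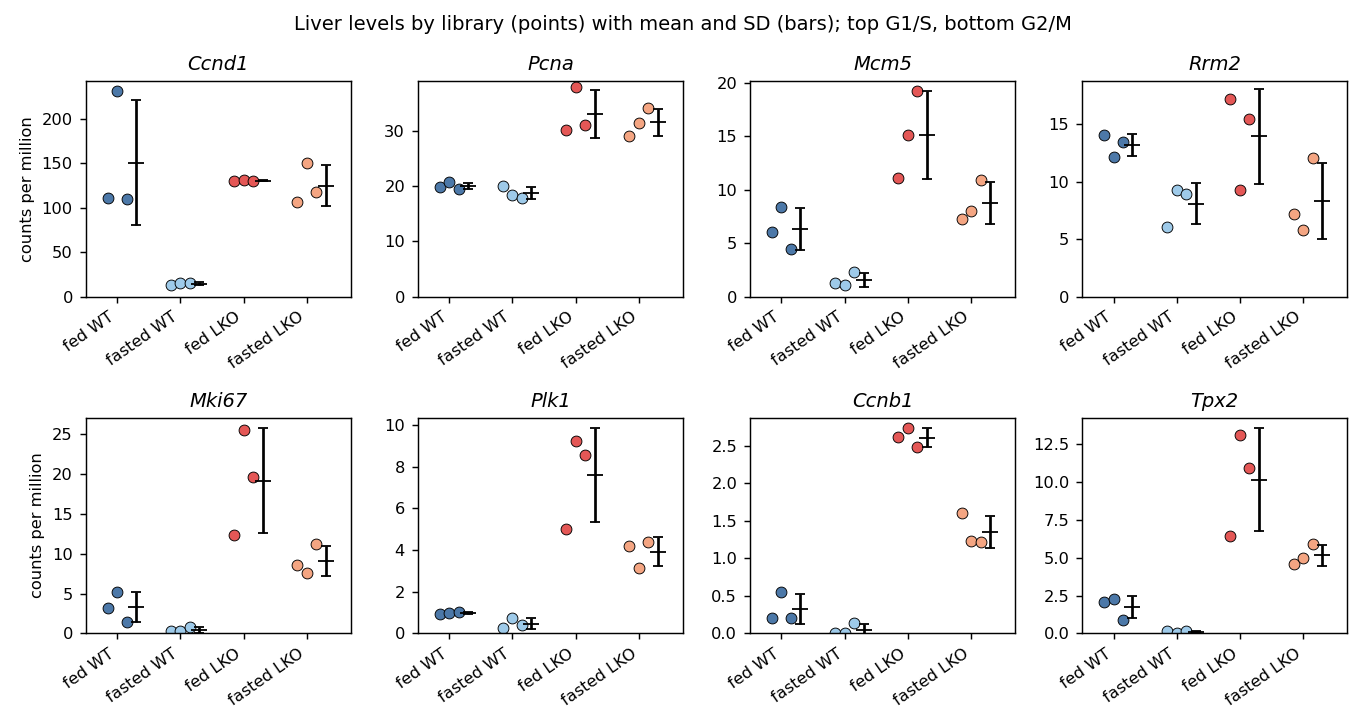
Level in CPM (y axis, linear) of 4 G1/S genes (top) and 4 G2/M genes (bottom) in each of the 12 livers, by group on the x axis; points are libraries and the bar and whisker give mean and SD (n = 3). Ccnd1 in fasted WT sits between 12.89 and 15.81, apart from the other 3 groups, while Mki67 and Plk1 sit highest in fed LKO.

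Fasting for 24 h in wild-type liver was the first comparison, and 19 of the 37 genes fell while none rose. In a test over all liver genes, 13.8% of genes fell and 12.5% rose (edgeR's quasi-likelihood test, adjusted p below 0.05). The liver shares of all genes, here and below, are over NONCODE and Ensembl identifiers together. With Ensembl genes only, 14423 were tested, and 2553 fell and 2302 rose with fasting in WT. In LKO against WT, 3959 of these were then higher and 3916 lower when fed, and 4644 and 4477 when fasted. Of the G1/S genes 9 of 15 fell, with a median log2 change of -1.27 over all 15. Of the G2/M genes 10 of 22 fell, with a median of -1.65. When only the WT groups were filtered and fitted, 23 of the 37 genes were left to test and 15 fell. The rest of the 37 entered this test through a filter that also held the LKO libraries. Ccnd1 fell the furthest of the G1/S genes. It stood at 110.74, 231.35 and 109.75 CPM in the fed WT livers and at 12.89, 15.16 and 15.81 CPM in the fasted ones. The groups did not overlap, and fed library b was high by itself. The change was -3.36 ± 0.29 (log2, SE; adjusted p = 6.75e-06), a 10.3-fold fall.

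Subunits of the replicative helicase fell too. Mcm6 was 8.41, 10.47 and 5.9 CPM in fed and 1.8, 2.25 and 2.61 CPM in fasted WT livers, a log2 change of -1.89 ± 0.26 (adjusted p = 3.99e-05). Mcm5 was 6.03, 8.39 and 4.48 CPM in fed and 1.29, 1.13 and 2.34 CPM in fasted WT, a change of -1.99 ± 0.35 (adjusted p = 0.000432). Neither gene's groups overlapped. Mcm2, another helicase subunit, fell by 1.27 on the log2 scale (adjusted p = 0.000581). E2f1, the transcription factor that drives S-phase genes, went from 7.06, 8.29 and 7.64 CPM to 1.29, 3.38 and 3.3 CPM, a change of -1.53 ± 0.29 (adjusted p = 0.000912). Pcna differed from these: it was 19.84, 20.71 and 19.55 CPM in fed and 19.97, 18.41 and 17.87 CPM in fasted WT livers, and did not pass the test (-0.09 ± 0.13, adjusted p = 0.637). The other G1/S genes that did not pass were Ccne2, Tyms, which makes thymidylate, Mcm7, Cdc6, the loader of the helicase, and Rrm2, a subunit of ribonucleotide reductase.

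Among the G2/M genes, Mki67, which coats mitotic chromosomes and serves as a proliferation marker, was 3.22, 5.23 and 1.43 CPM in fed WT livers and 0.26, 0.25 and 0.82 CPM in fasted WT livers. The groups did not overlap, and the change was -2.88 ± 0.65 (adjusted p = 0.00536), or -3.64 without fasted WT library c. Top2a, which untangles sister chromatids, was 2.18, 3.92 and 1.83 CPM in fed and 0.39, 0.25 and 0.14 CPM in fasted WT, a change of -3.28 ± 0.57 (adjusted p = 0.000422). Kif11, the motor that separates the spindle poles, fell by 2.78 on the log2 scale (adjusted p = 0.00104). Tpx2, a spindle assembly factor, was 2.08, 2.29 and 0.92 CPM in fed and 0.13, 0 and 0.14 CPM in fasted WT livers. That is 50 counts against 2, a ratio of 20.1 with an exact 95% interval of 5.28 to 170, and its fitted change was -4.17 ± 0.74 (adjusted p = 0.000428). Plk1 was 0.93, 0.98 and 1.02 CPM in fed and 0.26, 0.75 and 0.41 CPM in fasted WT. Its groups did not overlap, but the change of -1.02 ± 0.50 did not pass the test (adjusted p = 0.146).

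The mitotic genes sat close to the limit of counting in fasted WT liver. Ccnb1, the main mitotic cyclin, had 1 count over the 3 fasted WT libraries against 9 in fed WT, a ratio of 7.23 with an interval of 1.0 to 317. Cenpe, a kinetochore motor, had 1 against 14, a ratio of 11.3 (interval 1.71 to 476). Bub1 had 0 counts against 7, both groups near the floor of 3 counts per library, so no fold is given. With Bub1 left out the median over the other 21 G2/M genes was -1.57. Aurka, the spindle-pole kinase, was 6.03, 4.69 and 3.67 CPM in fed and 3.99, 4.38 and 3.99 CPM in fasted WT, with overlapping groups. Leaving out fed WT library b, the highest for Ccnd1, Mki67, Mcm5 and Mcm6, gave 14 genes that fell instead of 19. With library sizes alone in place of trimmed-mean scaling, 23 of the 37 genes fell and 0 rose, when 21.8% of all genes fell, 7.48% rose and the median of all genes was -0.19.

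In the LKO livers the same fast moved fewer members past the threshold, as it did for genes in general. There 4 of the 37 genes fell and 0 rose, against 0.683% lower and 0.834% higher of all genes tested. This count moved with the processing: it was 12 with DESeq2, 15 with no filter on low counts, 8 with Ensembl genes only and 0 with the compared groups only. The medians were -0.48 for G1/S and -0.98 for G2/M genes. Ccnd1 was 129.92, 131.12 and 129.69 CPM in fed LKO and 106.78, 150.63 and 117.1 CPM in fasted LKO livers, which overlapped (-0.06, adjusted p = 0.932). Rrm1, the large subunit of ribonucleotide reductase, was 16.13, 16.58 and 19.02 CPM in fed and 9.75, 9.26 and 10.71 CPM in fasted LKO, a change of -0.80 ± 0.15 (adjusted p = 0.019). Foxm1, an activator of the G2 wave, was 8.58, 8.91 and 10.65 CPM in fed and 5.31, 3.61 and 5.62 CPM in fasted LKO, a change of -0.95 ± 0.23 (adjusted p = 0.0462). Neither gene's fed and fasted LKO ranges overlapped. The other 2 calls were Birc5 (-1.55, adjusted p = 0.0198), an inhibitor of apoptosis that is part of the chromosomal passenger complex, and Prc1 (-1.51, adjusted p = 0.0258), which bundles spindle midzone microtubules. None of these 4 calls held when fasted LKO library a, fasted LKO library c or fed LKO library c was left out, and Birc5 alone remained without fed LKO library a. Foxm1 was also lost without fasted LKO library b, and Foxm1 and Prc1 without fed LKO library b, so the Foxm1 call needed each of the 6 LKO libraries. Mki67 was 12.35, 25.55 and 19.69 CPM in fed and 8.58, 7.63 and 11.25 CPM in fasted LKO, which did not overlap, yet the change of -1.07 missed the threshold in edgeR's quasi-likelihood test (adjusted p = 0.112) and passed it in DESeq2 (adjusted p = 0.04). E2f1 (-0.91) likewise missed it in edgeR (adjusted p = 0.0665) and passed it in DESeq2 (adjusted p = 0.0184), and it also passed in edgeR without fasted LKO library b or fed LKO library b. Mcm5 (-0.79, adjusted p = 0.102) missed it in edgeR. With no filter on low counts all 3 passed. With library sizes alone 4 genes fell, against 1.26% lower and 0.691% higher of all genes.

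The test of the difference between the 2 fasts, the interaction of genotype and feeding, called 5 members, each with a higher fasting change in LKO than in WT livers. Of all genes 6.33% were called in that direction and 5.70% in the other. The G1/S calls were 3 of 15 (median 0.62 over all 15) and the G2/M calls 2 of 22 (median 0.67). Ccnd1 differed by 3.30 ± 0.37 (log2, SE; adjusted p = 0.000239), Ccne1, the cyclin that fires S phase, by 2.18 ± 0.51 (adjusted p = 0.00924) and Mcm6 by 1.67 ± 0.32 (adjusted p = 0.00255). Tpx2 differed by 3.19 ± 0.85 (adjusted p = 0.0205), a call that was lost without fasted WT library b or fed WT library b. Top2a differed by 2.31 ± 0.67 (adjusted p = 0.0329), a call lost without fasted LKO library c, fed WT library b or any 1 of the fasted WT libraries. Over the 3 fasted WT libraries Ccne1 had 8 counts, Tpx2 2 and Top2a 6, so the sizes of these differences are imprecise. Without fasted WT library b or fed WT library b 3 members were called, and 9 without fed WT library c. Mcm5 (1.20, adjusted p = 0.0829), Mki67 (1.81, or 2.58 without fasted WT library c; adjusted p = 0.153) and E2f1 (0.62, adjusted p = 0.335) were not called by edgeR's quasi-likelihood test. Mki67 was called by DESeq2 (1.84, adjusted p = 0.0447), with no filter and without fed WT library c. Mcm5 was called with library sizes alone (adjusted p = 0.04997), with no filter, and without fasted WT library c, fed LKO library c or fed WT library c. Library sizes alone gave 8 members higher, against 9.40% higher and 4.25% lower of all genes, with an all-gene median of 0.15.

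**Figure D3:**
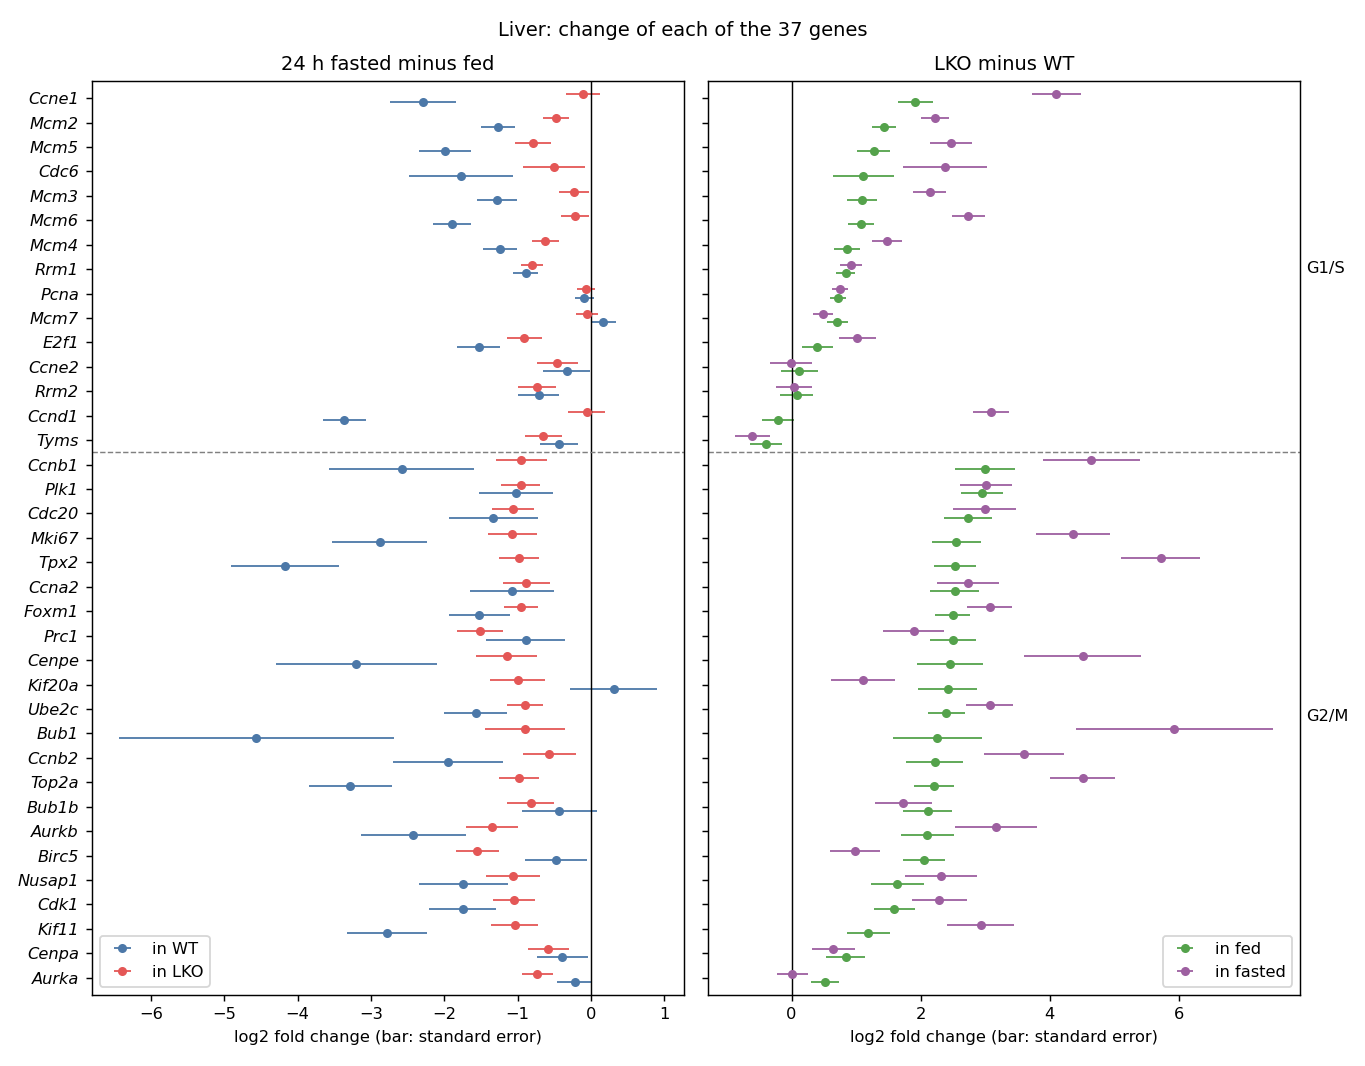
Log2 change with its SE (x axis) for each of the 37 genes (y axis, G1/S and G2/M grouped), fasted minus fed in WT and LKO livers at left and LKO minus WT in fed and fasted livers at right. In WT livers the fasting changes of 19 genes passed the threshold on the negative side, and the LKO minus WT changes of 30 (fed) and 31 (fasted) genes passed it on the positive side.

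Between genotypes in the fed state, nearly the whole G2/M class was higher in LKO livers. Of the 22 G2/M genes 21 rose and 0 fell, with a median log2 difference of 2.33. Of the 15 G1/S genes 9 rose and 0 fell, with a median of 0.84. Over all genes 23.3% were higher and 22.8% lower. The difference of the 2 medians was 1.49, or 1.22 to 1.93 when single libraries were left out. On the WT libraries alone the filter on low values left only 23 members to test. The others entered this test, the fasted one and the interaction through a filter that also held the LKO libraries, where most members were higher. With no filter, 30 members were higher in fed LKO, 32 in fasted LKO and 9 in the interaction, with 0 lower in each. Plk1 stood at 0.93, 0.98 and 1.02 CPM in fed WT and at 5.01, 9.23 and 8.57 CPM in fed LKO livers, a difference of 2.95 ± 0.32 (adjusted p = 9.62e-07) or 7.71-fold. Mki67 stood at 3.22, 5.23 and 1.43 CPM in fed WT and at 12.35, 25.55 and 19.69 CPM in fed LKO, a difference of 2.55 ± 0.38 (adjusted p = 9.33e-05) or 5.86-fold. The lowest LKO library lay above the highest WT library for both genes. Foxm1, the activator of this wave, was higher by 2.50 ± 0.27 (adjusted p = 8.99e-07). Ube2c, the ubiquitin-conjugating enzyme of the anaphase-promoting complex, was 1.97, 2.62 and 0.92 CPM in WT and 7.96, 9.95 and 11.19 CPM in LKO (2.40 ± 0.28, adjusted p = 2.03e-06). Tpx2 was 2.08, 2.29 and 0.92 CPM in WT and 6.45, 13.13 and 10.92 CPM in LKO (2.53 ± 0.32, adjusted p = 6.01e-06). Aurka was the G2/M gene that did not pass, at 6.03, 4.69 and 3.67 CPM in WT and 6.66, 5.92 and 8.04 CPM in LKO.

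The G1/S genes were less uniform. Ccne1 was 1.56, 1.96 and 1.73 CPM in fed WT and 6.25, 6.18 and 7.5 CPM in fed LKO, a difference of 1.92 ± 0.27 (adjusted p = 1.6e-05). Mcm2 was 8.21, 10.36 and 5.19 CPM in WT and 19.35, 20.48 and 24.12 CPM in LKO, a difference of 1.43 ± 0.19 (adjusted p = 8.68e-06). Neither gene's groups overlapped. Mcm5 was higher by 1.27 ± 0.26 (adjusted p = 0.000729), Rrm1 by 0.84 ± 0.15 (adjusted p = 0.000225) and Pcna by 0.72 ± 0.12 (adjusted p = 0.000123). Ccnd1 did not pass, with the LKO values of 129.69 to 131.12 CPM inside the WT range of 109.75 to 231.35 CPM (-0.21, adjusted p = 0.527). E2f1 did not pass either (0.40, adjusted p = 0.196), nor did Ccne2, Tyms, Cdc6 and Rrm2.

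In the fasted state 31 of the 37 genes were higher in LKO livers and 0 lower, against 28.0% higher and 28.1% lower of all genes. The G2/M count was 19 of 22, with a median of 3.00, or 2.96 with Bub1 at its lower bound. The G1/S count was 12 of 15, with a median of 1.48. Ccnd1 now differed, at 12.89, 15.16 and 15.81 CPM in WT and 106.78, 150.63 and 117.1 CPM in LKO, by 3.09 ± 0.28 (adjusted p = 2.05e-06) or 8.54-fold. Ccne1 went from 0.26, 0.38 and 0.41 CPM in WT to 6.11, 4.22 and 8.13 CPM in LKO, 4.10 ± 0.38 (adjusted p = 7.07e-08) or 17.1-fold. Mki67 was 0.26, 0.25 and 0.82 CPM in WT and 8.58, 7.63 and 11.25 CPM in LKO, 4.36 ± 0.57 (adjusted p = 2e-05) or 20.5-fold. In all 3 genes the groups lay far apart, and without fasted WT library c the Mki67 difference was 5.13. Mcm6 was higher by 2.74 ± 0.25 (adjusted p = 5.47e-08), Mcm2 by 2.22 ± 0.22 (adjusted p = 1.71e-07) and E2f1 by 1.02 ± 0.29 (adjusted p = 0.00701). Top2a was higher by 4.51 ± 0.50 (adjusted p = 8.42e-07), and Foxm1 and Ube2c by 3.07 each. Over the 3 fasted WT libraries Ccne1 had 8 counts, Mki67 10 and Top2a 6, so the sizes of their differences are imprecise. Tpx2 had 2 counts in fasted WT against 214 in fasted LKO, a ratio of 59.1 (exact 95% interval 16.2 to 492). Ccnb1 had 1 against 56, a ratio of 31.0 (5.33 to 1240), and Cenpe 1 against 51, a ratio of 28.2 (4.84 to 1140). Bub1 had 0 against 27 and was at least 1.68-fold higher in LKO at the floor of 3 counts per library. The genes that did not pass were Ccne2, Tyms, Rrm2, Aurka, Cenpa, the centromeric histone, and Kif20a, a cytokinesis motor.

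With library sizes alone, 33 of the 37 genes were higher in fed LKO and 33 in fasted LKO livers, and 0 were lower in both. The all-gene medians then moved to 0.39 and 0.52, and 41.6% and 49.0% of all genes were called higher, with 12.8% and 14.9% lower. The WT libraries are shared between these comparisons and those of fasting, so the changes of a gene in both are not separate measurements.

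Other genes of the pathway, from hand-written lists, were read in the same tests. Of all genes 13.8% fell and 12.5% rose with fasting in WT, and 0.683% fell and 0.834% rose in LKO. In LKO against WT, 23.3% of all genes were higher and 22.8% lower when fed, and 28.0% and 28.1% when fasted. Of 50 mitosis and cytokinesis genes tested, 13 fell and 2 rose with fasting in WT (median -1.46), and 2 fell with fasting in LKO (median -0.83). In LKO against WT, 40 rose and 2 fell in the fed state (median 2.09) and 40 rose and 2 fell in the fasted state (median 2.80). Racgap1, which positions the cleavage furrow, was 1.56, 2.4 and 1.73 CPM in fed WT, 0.26, 0.25 and 0.14 CPM in fasted WT and 5.15, 10.79 and 9.58 CPM in fed LKO. It fell by 3.06 on the log2 scale with fasting in WT (adjusted p = 0.000479) and was higher by 2.16 in fed LKO (adjusted p = 1.1e-05). Incenp, the scaffold of the chromosomal passenger complex, fell by 1.74 with fasting in WT and was higher by 2.68 in fasted LKO (adjusted p = 4.1e-07). Spc24, a kinetochore subunit, went the other way, at 11.98, 9.27 and 7.01 CPM in fasted WT and 0.8, 1.43 and 1.06 CPM in fasted LKO (-3.08 ± 0.28, adjusted p = 7.5e-08).

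Of 43 replication origin and fork genes, 13 fell and 1 rose with fasting in WT (median -0.48), and 2 fell in LKO (median -0.20). The shares of all genes were 13.8% lower and 12.5% higher in WT, and 0.683% and 0.834% in LKO. In LKO against WT, 15 rose and 6 fell in the fed state (median 0.29), and 21 rose and 8 fell in the fasted state (median 0.54). Of all genes 23.3% were higher and 22.8% lower in the fed state, and 28.0% and 28.1% in the fasted state. Lig1, which seals Okazaki fragments, was 3.32, 5.02 and 2.24 CPM in fed WT and 11.39, 16.45 and 14.6 CPM in fed LKO (2.01 ± 0.24, adjusted p = 3.27e-06). Chaf1a, a subunit of the chromatin assembly factor at the fork, was higher by 2.40 in fed LKO, and Dnmt1, the maintenance methyltransferase, by 1.08. Mcm10, a fork protein chosen here after its values were seen, ran against the other helicase genes. It was 86.64, 39.36 and 51.72 CPM in fed WT, 91.11, 109.98 and 82.49 CPM in fasted WT, 5.63, 6.05 and 8.57 CPM in fed LKO and 3.05, 6.13 and 3.88 CPM in fasted LKO. Its WT and LKO ranges lay far apart (-3.13 ± 0.32 fed and -4.43 ± 0.34 fasted).

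Regulators upstream were read as a list too. Of 19 E2F, RB and DREAM genes tested, 3 fell and 2 rose with fasting in WT, 0 were called in LKO (edgeR), 4 rose and 2 fell in fed LKO (median 0.12), and 7 rose and 5 fell in fasted LKO (median 0.26). Of all genes 13.8% fell and 12.5% rose with fasting in WT, 23.3% rose and 22.8% fell in fed LKO, and 28.0% rose and 28.1% fell in fasted LKO, so the list's counts with fasting and its rises in fed LKO lay near the background. Myc, a growth-linked transcription factor held in that list, was 14.96, 12.1 and 27.69 CPM in fed WT, 104.59, 87.7 and 87.95 CPM in fed LKO and 136.09, 113.25 and 166.41 CPM in fasted LKO. The difference was 2.35 ± 0.25 in the fed state (adjusted p = 7.69e-06) and 2.94 ± 0.26 in the fasted state (adjusted p = 7.6e-07). Mybl2, the B-Myb subunit that activates CHR genes, was higher by 1.89 ± 0.46 in fed LKO (adjusted p = 0.00268) and by 1.29 ± 0.51 in fasted LKO (adjusted p = 0.0393). The fasted call was lost with DESeq2 (adjusted p = 0.0603), with no filter, and without fasted LKO library a or c or fasted WT library a or b. Of 13 G1 cyclins and kinases, 4 fell and 1 rose with fasting in WT, 2 rose and 2 fell in fed LKO, and 5 rose and 1 fell in fasted LKO.

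Of 19 kinase inhibitors and p53 arrest genes, 11 rose and 1 fell in fed LKO (median 1.00) and 8 rose and 3 fell in fasted LKO (median 0.49). With fasting in WT, 6 rose and 4 fell. The shares of all genes were 23.3% higher and 22.8% lower in fed LKO and 28.0% and 28.1% in fasted LKO. With fasting in WT they were 12.5% and 13.8%. Btg2, an antiproliferative p53 target, was 18.39, 11.12 and 11.81 CPM in fed WT and 101.99, 79.7 and 72.35 CPM in fed LKO (2.62 ± 0.22, adjusted p = 2.8e-07). Cdkn1a, the p21 inhibitor of cyclin kinases, was 37.81, 177.27 and 76.25 CPM in fed WT and 225.8, 228.18 and 195.53 CPM in fed LKO. Its ranges did not overlap, but the difference of 1.16 ± 0.46 did not pass the test (adjusted p = 0.0679). It was 1.92 and passed without fed WT library b, the library high for Ccnd1 (adjusted p = 8.3e-05), and it passed with DESeq2 (1.19). Cdkn1b, the p27 inhibitor, was lower in fasted LKO (-0.52 ± 0.12, adjusted p = 0.0015), a difference of -0.00 with library sizes alone.

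Markers of other cell types differed between these groups, not all in the same direction. Of all genes 13.8% fell and 12.5% rose with fasting in WT. In LKO against WT, 23.3% were higher and 22.8% lower when fed, and 28.0% and 28.1% when fasted. The interaction called 6.33% of all genes higher and 5.70% lower. The 15 macrophage and Kupffer cell markers summed to 1890 to 2410 CPM in fed WT, 627 to 873 in fasted WT, 3410 to 3890 in fed LKO and 2920 to 3440 in fasted LKO. All 15 fell with fasting in WT, 13 rose in fed LKO, 15 rose in fasted LKO and 13 were called in the interaction. The neutrophil markers summed to 18.9 to 37.7, 4.64 to 6.46, 49.0 to 63.1 and 24.2 to 50.6 CPM in the same order, with 1 of 10 markers at 0 in fed WT and 2 in fasted WT, and of 9 tested 6 fell with fasting in WT, 5 rose in fed LKO and 7 rose in fasted LKO. Stellate and fibroblast markers summed to 538 to 572, 411 to 427, 728 to 1000 and 682 to 728 CPM, with 9 of 12 higher in fed LKO and 8 in fasted LKO. Cholangiocyte and progenitor markers summed to 106 to 120, 82.2 to 100, 205 to 281 and 215 to 283 CPM, with 3 and 7 of 8 higher in LKO. Endothelial markers summed to 713 to 865, 578 to 686, 821 to 947 and 823 to 915 CPM. The 8 erythroid markers summed to 338 to 424, 341 to 378, 252 to 285 and 311 to 343 CPM, with fed LKO below fed WT. T and NK cell markers summed to 22.5 to 27.7, 11.3 to 15.3, 19.5 to 27.2 and 15.9 to 30.7 CPM, and B cell and plasma cell markers to 40.2 to 53.1, 10.0 to 14.4, 30.7 to 40.3 and 20.7 to 46.5 CPM. The 14 hepatocyte markers summed to 42700 to 46000 CPM in fed WT, 52200 to 54400 in fasted WT, 19300 to 21900 in fed LKO and 19900 to 22800 in fasted LKO, and 13 of 14 were lower in LKO in either feeding state. In bulk tissue, fewer cells of a type and less RNA per cell cannot be told apart, and the part of these cell types in the changes of the 37 genes was not tested.

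In MEFs all 37 genes were well measured, and their range across the 8 groups differed by class. The means of the 22 G2/M genes spanned 0.46 to 1.61 on the log2 scale from the lowest to the highest group, with a median span of 1.12. The 15 G1/S genes spanned 0.13 to 1.27, with a median of 0.33. All 22 G2/M genes were highest under the heading GFP basal. Their lowest group was CRE deprived for 12 genes, GFP 4 h for 8 and CRE 4 h for 2. The highest G1/S groups were spread, with 7 of 15 in GFP basal.

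The headings need to be read with a set of measured facts. By mean squared distance over all genes past the filter on low values, GFP 1 h lay nearest to CRE basal (root mean square 0.183 log2 units) and GFP 4 h nearest to CRE deprived (0.18). GFP basal lay nearest to GFP deprived (0.203), and CRE 1 h nearest to CRE 4 h (0.215). Mat2a, the methionine adenosyltransferase gene, chosen here after its values were seen, averaged 12.34, 12.17, 13.89 and 13.77 log2 units under GFP basal, deprived, 1 h and 4 h. Under CRE it averaged 13.60, 13.59, 11.80 and 11.43 in the same order. Myc averaged 11.39, 11.19, 13.77 and 13.95 under GFP and 12.96, 13.16, 11.36 and 11.20 under CRE. Both genes thus split the groups into the same 4 and 4, GFP 1 h and 4 h with CRE basal and deprived against the rest. Not every gene split this way. Cdkn1b, the p27 inhibitor, was higher under every GFP heading than under any CRE heading, from 11.48 under GFP 1 h to 10.95 under CRE 4 h. It is uncertain whether each heading of this table stands over the virus and treatment it names, and these values do not settle it. If headings were exchanged, every CRE minus GFP difference and every step that follows would change its meaning. The results are therefore given by heading, and the words GFP, CRE, basal, deprived, 1 h and 4 h stand for headings only.

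**Figure D4:**
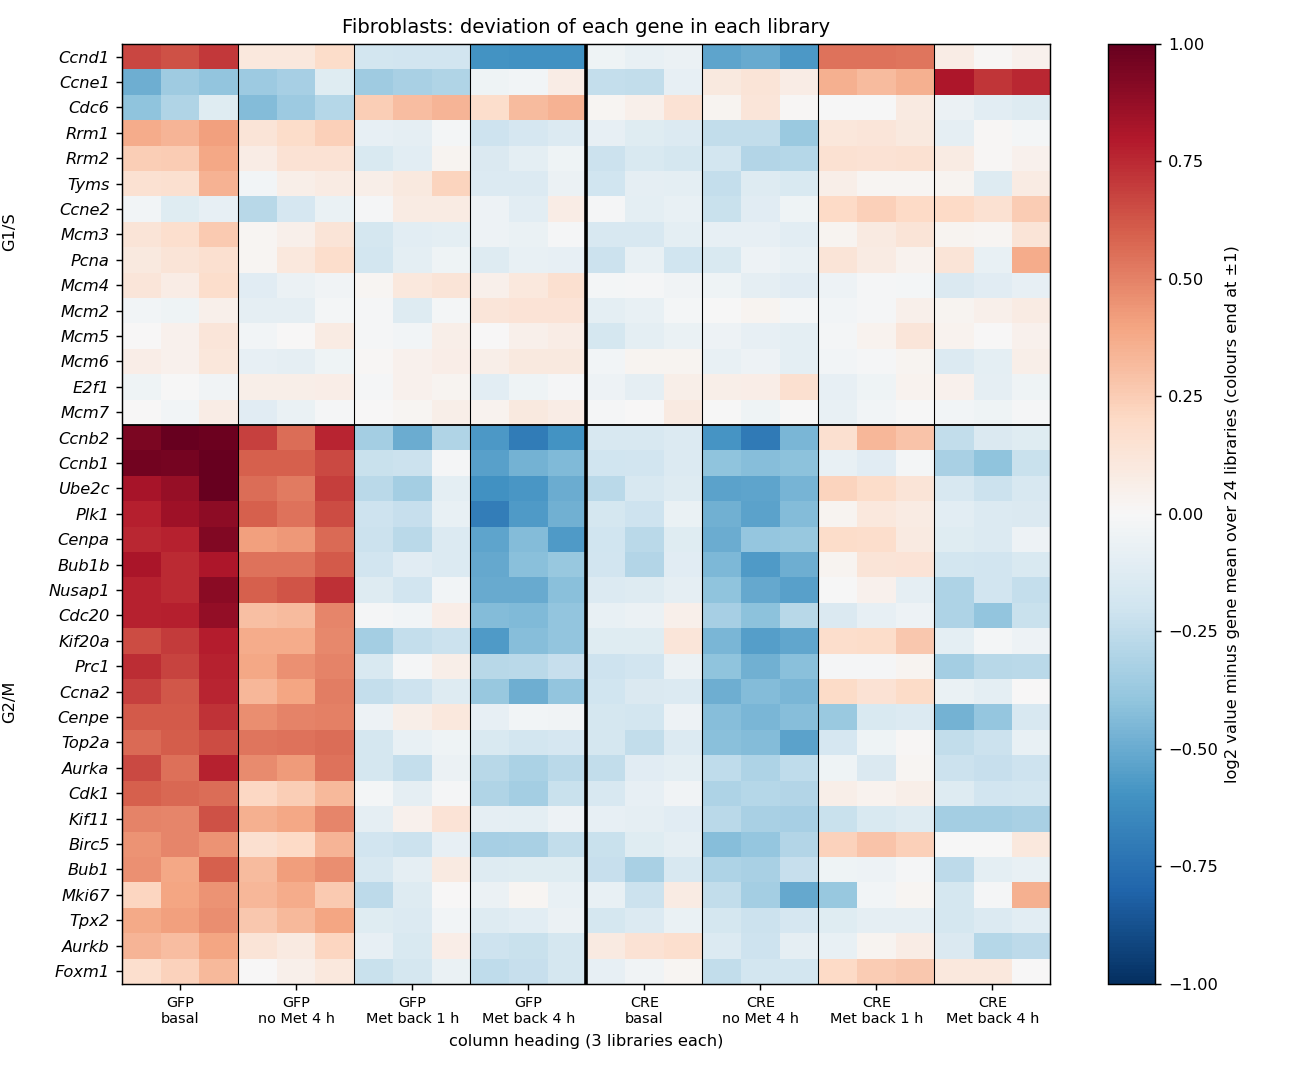
Log2 value minus the mean of each gene over all 24 MEF libraries (colour scale in log2 units), with 37 genes as lines and libraries as columns grouped by heading. The G2/M genes are highest under GFP basal, and the lowest columns are CRE deprived, GFP 4 h and CRE 4 h.

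Under the basal heading the whole G2/M class was lower with CRE than with GFP. All 22 G2/M genes fell and 0 rose (median -0.81), and of the 15 G1/S genes 8 fell and 2 rose (median -0.14). Over all genes 28.6% were lower and 29.7% higher (limma, adjusted p below 0.05). Plk1 was 11.83, 11.9 and 11.95 log2 units under GFP basal and 10.88, 10.85 and 10.99 under CRE basal, a difference of -0.98 ± 0.05 (SE; adjusted p = 3.35e-17). Ccnb1 was 12.06, 12.05 and 12.15 under GFP and 10.89, 10.9 and 10.96 under CRE, a difference of -1.17 ± 0.05 (adjusted p = 2.66e-19). The groups lay many times the replicate spread apart in both. Bub1b, a spindle checkpoint kinase, differed by -0.99 and Ccna2 by -0.85. Mki67 was 13.47, 13.65 and 13.71 under GFP and 13.18, 13.04 and 13.34 under CRE, a smaller difference of -0.43 ± 0.13 (adjusted p = 0.00888). Of the G1/S genes Ccnd1 stood out, at 13.69, 13.66 and 13.73 under GFP and 12.98, 12.95 and 12.97 under CRE (-0.73 ± 0.03, adjusted p = 7.28e-19). Rrm1 (-0.49), Rrm2 (-0.47), Mcm3 (-0.33) and Mcm5 (-0.17, adjusted p = 0.000565) fell too. E2f1 did not pass, at 11.58, 11.62 and 11.59 under GFP and 11.57, 11.53 and 11.68 under CRE (-0.01, adjusted p = 0.926).

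Under the methionine-free heading all 22 G2/M genes were again lower with CRE (median -0.88), while 7 G1/S genes were lower and 2 higher (median -0.01), against 30.6% lower and 32.0% higher of all genes. Nusap1, a spindle microtubule bundler, differed by -1.14 ± 0.05 (adjusted p = 9.39e-19), Plk1 by -1.08 ± 0.05 (adjusted p = 1.97e-18), Bub1b by -1.07 and Top2a by -1.01. Ccnd1 was 13.13, 13.13 and 13.21 under GFP deprived and 12.5, 12.52 and 12.45 under CRE deprived (-0.67, adjusted p = 4.77e-18). Cdc6 went the other way, at 10.05, 10.12 and 10.2 under GFP and 10.51, 10.6 and 10.49 under CRE (0.41 ± 0.06, adjusted p = 1.84e-07). The call of Mcm5 (-0.09, adjusted p = 0.0484) was lost with edgeR or DESeq2 on the recovered counts, with no filter, with no trend and when single libraries were left out, among them each of the CRE deprived ones.

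Under the 1 h and 4 h headings more members were higher than lower with CRE. At 1 h 10 G2/M genes were higher and 2 lower (median 0.10), and 7 G1/S genes were higher and 2 lower (median 0.06), against 26.9% higher and 28.1% lower of all genes. At 4 h 12 G2/M genes were higher and 2 lower (median 0.15), and 7 G1/S genes higher and 4 lower (median 0.10), against 30.8% higher and 29.0% lower. Ccnd1 was 12.84, 12.83 and 12.83 under GFP 1 h and 13.57, 13.57 and 13.56 under CRE 1 h, a difference of 0.73 ± 0.03 (adjusted p = 6.39e-19). At 4 h it was 12.43, 12.42 and 12.42 under GFP and 13.1, 13.04 and 13.07 under CRE (0.65 ± 0.03, adjusted p = 1.27e-17). Ccne1 was 9.81, 9.84 and 9.86 under GFP 1 h and 10.52, 10.48 and 10.52 under CRE 1 h (0.67 ± 0.05, adjusted p = 2.51e-12). It was higher by 0.76 ± 0.05 at 4 h (adjusted p = 8.8e-14), and in both cyclins no library of one virus overlapped the other.

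Among the mitotic genes at 1 h, Ccnb2, a B-type cyclin, was 9.7, 9.54 and 9.74 under GFP and 10.2, 10.37 and 10.32 under CRE (0.64 ± 0.06, adjusted p = 1.45e-10). Birc5 differed by 0.42 and Foxm1 by 0.39 at that heading. At 4 h Plk1 was 10.36, 10.49 and 10.57 under GFP and 10.95, 10.92 and 10.91 under CRE (0.45 ± 0.05, adjusted p = 2.44e-09), and Ccna2 differed by 0.36. The 4 G1/S genes lower under CRE at 4 h were Cdc6 (-0.38, adjusted p = 7.21e-07), Mcm4 (-0.22), Mcm6 (-0.15) and Mcm7 (-0.10), and the 2 lower at 1 h were Cdc6 (-0.27) and Mcm4 (-0.12). The 2 G2/M genes lower at both headings were the motors Kif11 (-0.19 and -0.25) and Cenpe (-0.26 and -0.29). Mki67 did not pass at 1 h (adjusted p = 0.995) or 4 h (0.10, adjusted p = 0.548). CRE 4 h library 3 stood above its fellow libraries for Mki67 (13.61 against 13.08 and 13.25) and Pcna (13.02 against 12.78 and 12.58). Without it 25 members were called at 4 h, 18 higher and 7 lower, where the full set gave 25, 19 higher and 6 lower.

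**Figure D5:**
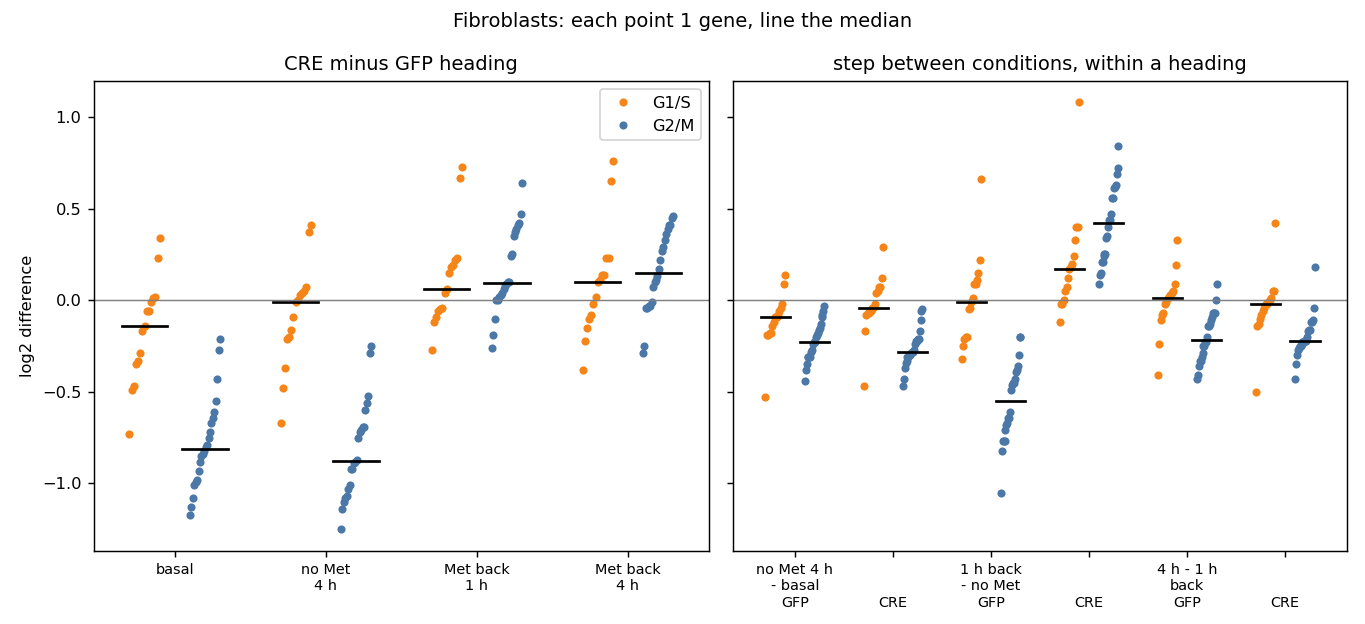
Log2 difference (y axis) of each gene in MEFs, CRE minus GFP within each heading and each step between headings within GFP or CRE; points are genes, coloured by class, and lines are class medians. The G2/M medians are -0.81 and -0.88 under the basal and deprived headings and 0.10 and 0.15 under the 1 h and 4 h headings.

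Steps between headings within 1 virus were small from basal to deprived. With GFP 7 G1/S and 17 G2/M genes fell and 0 rose (medians -0.09 and -0.23), against 13.6% lower and 10.0% higher of all genes. With CRE 2 G1/S genes fell and 2 rose and 18 G2/M genes fell (medians -0.04 and -0.28), against 13.5% lower and 15.0% higher. Ccnd1 changed by -0.53 with GFP and by -0.47 with CRE. One of the 2 rises with CRE, E2f1 (0.12), was lost after a median shift, with no filter, with no trend and without CRE basal library 1 or 2 or CRE deprived library 3.

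From the deprived to the 1 h heading the G2/M genes went opposite ways under GFP and CRE, which describes the 2 viruses only if these headings are right. With GFP all 22 G2/M genes fell (median -0.55), and of the G1/S genes 5 rose and 5 fell (median -0.01), against 28.8% lower and 30.7% higher of all genes. With CRE 21 G2/M genes rose and 0 fell (median 0.42), and 9 G1/S genes rose and 1 fell (median 0.17), against 30.0% higher and 30.1% lower. Ccnb2 went from 10.72, 10.6 and 10.8 to 9.7, 9.54 and 9.74 with GFP (-1.05 ± 0.06, adjusted p = 7.57e-16). With CRE it went from 9.45, 9.33 and 9.58 to 10.2, 10.37 and 10.32 (0.84 ± 0.06, adjusted p = 1.81e-13). The deprived and 1 h libraries did not overlap under GFP or under CRE. Ccnd1 fell with GFP (-0.32, adjusted p = 2e-10) and rose with CRE (1.08 ± 0.03, adjusted p = 2.2e-23).

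The interaction of virus with this step called all 22 G2/M genes on the side of a higher change with CRE (median 0.97), 6 G1/S genes on the same side and 1 on the other (median 0.12). Of all genes 33.5% and 33.1% were called on those 2 sides. Ccnb2 differed by 1.89 ± 0.09 (adjusted p = 7.45e-19), Plk1 by 1.33 ± 0.07 (adjusted p = 3.99e-17), Bub1b by 1.32, Ccna2 by 1.24 and Mki67 by 0.69 (adjusted p = 0.003). Of the G1/S genes Ccnd1 differed by 1.40, Rrm1 by 0.65 and Rrm2 by 0.60. Cdc6 was the gene on the other side (-0.68, adjusted p = 6.73e-09): it went from 10.05, 10.12 and 10.2 to 10.73, 10.79 and 10.82 with GFP and from 10.51, 10.6 and 10.49 to 10.48, 10.48 and 10.57 with CRE. Mcm5 (0.13, adjusted p = 0.0509) and E2f1 (-0.08, adjusted p = 0.242) were not called.

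From 1 h to 4 h of replenishment most G2/M genes fell under both GFP and CRE. With GFP 15 G2/M genes fell and 0 rose (median -0.21), and 3 G1/S genes fell and 2 rose (median 0.01), against 18.8% lower and 17.9% higher of all genes. With CRE 17 G2/M genes fell and 0 rose (median -0.22), and 2 G1/S genes fell and 1 rose (median -0.02), against 12% lower and 13.4% higher. Ccnd1 changed by -0.41 with GFP and by -0.50 with CRE, while Ccne1 rose by 0.33 and 0.42. The interactions of virus with the basal-to-deprived step and with the 1 h to 4 h step called 0 members with limma. At an unadjusted p below 0.05 they held 6 (3 G1/S and 3 G2/M) and 5 (2 and 3) genes. On recovered counts edgeR called 0 in both, and DESeq2 called 1 and 0. Of all genes 3.23% were called higher and 1.55% lower in the first interaction, and 4.25% and 2.90% in the second.

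The wider lists were read in MEFs as well. Of all genes 29.7%, 32.0%, 26.9% and 30.8% were higher and 28.6%, 30.6%, 28.1% and 29.0% lower with CRE under basal, deprived, 1 h and 4 h. Of 56 mitosis and cytokinesis genes, 50 fell and 1 rose with CRE under the basal heading and 51 fell and 1 rose under the deprived heading. At 1 h 17 rose and 14 fell, and at 4 h 17 rose and 17 fell, with medians of 0.01 and -0.02, near the shares of all genes. Hmmr, a spindle protein, differed by -1.09 ± 0.05 under the basal heading, and Ncapd2, a condensin subunit, by -0.70. Of 46 replication genes 25 fell and 8 rose under basal, and 19 fell and 11 rose under deprived. At 1 h 13 rose and 14 fell, and at 4 h 15 rose and 16 fell, again near those shares. Tk1, thymidine kinase, differed by -0.67 and Orc2, an origin recognition subunit, by 0.56 under the basal heading.

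Cell cycle inhibitors and regulators differed from one another across the headings. Cdkn1a averaged 8.86, 9.39, 10.41 and 10.88 log2 units under GFP (basal, deprived, 1 h and 4 h) and 9.82, 10.68, 8.38 and 9.34 under CRE. The CRE minus GFP differences were 0.96 and 1.28 under basal and deprived and -2.03 and -1.54 at 1 h and 4 h. Cdkn1b was lower with CRE under every heading (-0.35, -0.43, -0.41 and -0.38). Mybl2 was higher with CRE under basal (0.53) and deprived (0.63) and lower at 1 h (-0.40) and 4 h (-0.36), the opposite side to Foxm1, which was -0.27, -0.25, 0.39 and 0.29. Of 19 kinase inhibitors and p53 arrest genes, 9, 8, 4 and 5 were higher and 6, 7, 11 and 12 lower with CRE under the 4 headings. The shares of all genes were 29.7%, 32.0%, 26.9% and 30.8% higher and 28.6%, 30.6%, 28.1% and 29.0% lower.

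Reads of some members cannot be told apart from those of neighbours, since the strand setting of the counting is not given in the sources used here. Exons of Kif20a share 29.3% of their length with Cdc23, those of Ccnd1 23.4% with LTO1, those of Ube2c 22.8% with Tnnc2, those of Ccne2 17.4% with Ints8, those of Ccna2 12.5% with Exosc9 and those of Prc1 11.1% with Rccd1, all on the opposite strand. Processed copies had counts of their own in the liver table. Ccnb2-ps held 99 counts over the 12 libraries, where Ccnb2 held 20, 4, 149 and 92 in fed WT, fasted WT, fed LKO and fasted LKO. Ccnb1-ps held 18, where Ccnb1 held 9, 1, 117 and 56 in the same order. Pcna-ps2 held 78 and Pcna-ps1 0, where Pcna held 573, 432, 1486 and 1308. How reads were shared between a gene and its copy is not given in the sources used here, so the Ccnb1 and Ccnb2 levels in WT livers are uncertain.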

How the data were processed

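Polyadenylated RNA was sequenced with a strand-marking kit, per the labels' protocols, in 12 livers and 24 MEF libraries. For liver the authors deposited raw gene counts (HISAT2 and Subread, build mm10), and for MEFs the authors deposited log2 values after a variance-stabilizing transformation, from STAR 2.7.10b and featureCounts on mm10. Tools and builds are as the submitters' processing notes list them, with DESeq2, edgeR and limma beside. Other versions, filters and the strand setting of the counting were not given in the sources used here. Of 48526 Ensembl identifiers in liver, 48144 matched a symbol. Undoing the MEF transformation gave whole counts (within 0.01) in 100% of cases, and these served for depth, CPM and alternatives only.

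Liver counts were filtered with filterByExpr, given TMM scaling factors (0.8006 to 1.223) and tested with edgeR 4.0.16's quasi-likelihood test on a model of 1 mean for each of the 4 groups. The MEF test was to be edgeR if the table held counts. As it holds log2 values, limma 3.58.1 (trend, robust) was used over the 24 libraries, for genes with a mean 1 log2 unit or more over the table's minimum of 4.17. In each of the 5 liver and 13 MEF comparisons, p-values over the whole table received the Benjamini-Hochberg adjustment, and the threshold was 0.05. R 4.3.3, DESeq2 1.42.0, Python 3.11.15, pandas 2.3.3 and SciPy 1.17.1 were used. Folds against 0 counts are bounds at 3 counts per library, and intervals (95%, exact) cover counting error only.

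The members, lists and tests were chosen with earlier results of these data known. Genes given with full statistics were the up to 4 G1/S and 4 G2/M members with the smallest adjusted p, Mki67, Mcm5, Ccnd1 and E2f1 always, up to 3 per other list, and Cdkn1a, Cdkn1b, Mybl2 and Myc always. Not every gene so selected is printed, and members outside the rule are given to complete the set. Alternatives were RLE factors, library sizes alone, DESeq2, no filter, Ensembl genes only, the compared groups only and each library left out for liver. For MEFs they were a median shift, the replicate number as a block, no trend, no filter, the compared groups only, edgeR and DESeq2 on recovered counts and each library left out. Both sets were also read with Ccnd1 left out and with Ccna2 as a G1/S gene.

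The fits were tested on simulated data. For LKO against WT in fed liver, edgeR run on 23076 genes recovered 59 of 97 true changes of log2 size 1 and 87 of 98 of size 2 and made 6 false calls. DESeq2 recovered 65 and 91 of them and made 23. For CRE against GFP under the basal heading, limma run on 13914 genes recovered 68 of 100 true changes of size 0.3. It recovered 95 of 100 of size 0.8 and made 4 false calls. These rates were not split by level, so recovery for members with few counts in liver was not shown. In the simulated data 22881 of 23076 liver genes and 13714 of 13914 MEF genes had no change. In the real comparisons 23.3% of liver genes were called higher and 22.8% lower, and 29.7% and 28.6% of MEF genes. The rate of false calls with so many changes was therefore not shown.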

Additional observations from a re-analysis of the deposited data

Results flagged for a closer look

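In liver, the effect of fasting differed between WT and LKO by the interaction test for 5 of the 37 genes, each with a higher change in LKO. The differences in log2 change were 3.3 for Ccnd1, 1.67 for Mcm6, 2.18 for Ccne1, 3.19 for Tpx2 and 2.31 for Top2a. Ccne1, Tpx2 and Top2a had 8, 2 and 6 counts over the 3 fasted WT libraries. In MEFs, read by heading, the step from methionine-free medium to 1 h of replenishment differed between GFP and CRE for 29 of the 37 genes. Among those named, the differences were 1.4 for Ccnd1, 0.65 for Rrm1, 0.6 for Rrm2, 1.89 for Ccnb2, 1.32 for Bub1b, 1.24 for Ccna2, 1.33 for Plk1 and 0.69 for Mki67, with -0.68 for Cdc6 on the other side. What lies behind these differences was not tested.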

How the results depend on the processing

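The counts of members called in the other comparisons moved by less than 1.5 times under every alternative run. A direction with 0 members in the report gained 1 in 2 of these comparisons: 1 member was lower in fasted LKO liver with Ensembl genes only (31 higher) and when fasted LKO c or fasted WT c was left out, and 1 rose from GFP basal to GFP deprived with the replicate block and when GFP basal 2, GFP deprived 1 or GFP deprived 2 was left out. Fasting in LKO liver gave 12 members with DESeq2, 8 with Ensembl genes only, 15 with no filter and 0 with the compared groups only, against 4, and 0 to 6 when single libraries were left out. The liver interaction gave 8 members with library sizes alone and 9 with no filter, against 5, and 3 to 9 with single libraries left out. The MEF interaction for the basal-to-deprived step gave 1 with DESeq2, 1 after a median shift and 3 with the compared groups only, against 0, and 0 to 1 with libraries left out. That for the 1 h to 4 h step gave 0 to 2 with libraries left out.

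The gap between the G2/M and G1/S medians was 1.75 with Ccnd1 left out and 1.2 with Ccna2 as G1/S, against 1.52, for LKO in fasted liver. With Ccnd1 left out it was -0.7 for CRE under basal (against -0.66) and 0.08 at 4 h (against 0.04). With Ccna2 as G1/S it was -0.01 for CRE at 1 h (reversed from 0.04), -0.46 for the GFP step from deprived to 1 h (against -0.54) and 0.8 for the interaction of that step (against 0.85). Leaving out single libraries moved the gap over -0.65 to -0.12 for fasting in WT, 1.22 to 1.93 for LKO in fed liver, 1.26 to 1.61 for LKO in fasted liver and -0.27 to 0.19 for the liver interaction, where it was below 0 without fasted WT a (-0.27), fasted LKO c (-0.24), fed LKO a (-0.2), fed WT b (-0.2) or fed LKO c (-0.04), against 0.05. In MEFs the ranges were -0.88 to -0.83 for CRE under deprived, 0.03 to 0.1 for CRE at 4 h, -0.15 to -0.08 and -0.28 to -0.22 for basal to deprived with GFP and CRE, and -0.56 to -0.49 and 0.24 to 0.29 for deprived to 1 h. The causes were not tested.

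With the replicate number as a block, both MEF interactions with 0 members gave 2. The labels do not say that a number marks a shared culture or day, and the numbers were not taken as pairs because not every same-numbered pair correlated over 0.1: over 84 pairs the correlation of deviations was -0.163 to 0.23 (median 0.024, 10 over 0.1). Still, 17 of 24 libraries correlated best with their own number, a hint of shared variation from the data, not from the design. No paired analysis was possible in liver because its headings carry no replicate numbers of the labels. Over single genes, 96 liver and 86 MEF values lost their call under some alternative, 25 and 16 gained one, and 0 reversed. Depth limits the mitotic genes of fasted WT liver, several of them at 0 to 2 counts per group.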

Other observations

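Gadd45a, a p53 and stress target, differed between CRE and GFP by 1.87 under basal, 1.75 under deprived, -2.63 at 1 h and -2.02 at 4 h (log2, limma). In fasted LKO liver Rbl2, the p130 subunit of DREAM, was 12.44, 13.07 and 14.13 CPM against 27.84, 31.82 and 28.18 CPM in fasted WT (-1.15 ± 0.15). Cdk6, a G1 kinase, was higher by 1.08 ± 0.12 in fed LKO liver, and Ccng1, a p53 target cyclin, by 1.33 ± 0.12 (edgeR's quasi-likelihood test).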
